A study of Homo sapiens with 18 samples.

Results

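Matrix metalloproteinases (MMPs) and their inhibitors are described here through 10 genes, *MMP1*, *MMP7*, *MMP9*, *MMP10*, *MMP13*, *MMP14*, *MMP15*, *TIMP1*, *TIMP2* and *TIMP3*. They were taken by name from the gene names of the transcript probes, and all 10 were found among 36204 names. RNA was measured on 18 single-colour arrays, 3 biological replicates in each of 6 groups, from the oxaliplatin (OXA) sensitive colorectal adenocarcinoma line HT29 and from HTOXAR3, a resistant subline of HT29 obtained by continuous exposure to rising OXA doses. Each line was left untreated, treated for 24 h with OXA, or treated for 24 h with OXA plus Curcumin. The OXA dose was 10 µM in HT29 but 30 µM in HTOXAR3, with 10 µM Curcumin in either line, so a difference between the lines in a response cannot be told apart from the difference in OXA dose. The labels call the control cells untreated, while the study's text also speaks of a vehicle. No array of Curcumin alone was among the samples analysed, and HTOXAR3 stands for 1 resistant subline.

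MMPs are zinc-dependent endopeptidases that are made as inactive proenzymes and cleave collagens, laminins and cell surface proteins once activated. Most are secreted, whereas others are tethered to the plasma membrane. Tissue inhibitors of metalloproteinases (TIMPs) bind the active site of MMPs, and TIMP2 also takes part, with the membrane protease MMP14, in activating MMP2. In colorectal epithelium and its tumours MMP7, or matrilysin, is the MMP known to be made by the epithelial cells themselves, while several others come mainly from stroma and leukocytes.

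Values are log2 of background-corrected, quantile-normalized fluorescence intensities, and differences are log2 differences from a linear model in limma over all 18 arrays. A difference was called where its fold exceeded 1.2 and its p, adjusted after Benjamini and Yekutieli (BY), was under 0.05. Each gene had 1 probe, so its levels are compared between arrays and not with those of other genes. A probe was taken as measured on an array where more than 0.5 of its spots were well above background. *MMP7*, *MMP9*, *MMP15*, *TIMP1* and *TIMP2* were measured on all 18 arrays. *MMP1* was measured on 17, *MMP14* on 16, *MMP13* on 7, *MMP10* on 1 and *TIMP3* on none. By array, 52.4% to 63.6% of transcript spots passed that background test, and no spot of the 10 genes was saturated. The lowest share belonged to untreated HTOXAR3 replicate 2, the array on which *MMP1* was not measured. The arrays came on 3 slides, 1 of which held only replicate 1 of untreated HT29 and of HT29 after OXA. All pairs of arrays correlated between 0.973 and 0.995.

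The epithelial identity of the lines was checked with marker lists. Of 12 colorectal epithelial markers 9 were well above background on all 18 arrays, among them *EPCAM*, *KRT8*, *KRT18* and *KRT20*, and each was so on at least 1 array. Without treatment 3 of the 12 were lower in the resistant line, led by *LGALS4* at a log2 difference of -2.08 and *VIL1* at -1.61, where 5.28% of all names were called lower. The summed intensity of the 12 ran from 738727 to 768611 in untreated HT29 and from 763018 to 784199 in untreated HTOXAR3, and reached 882367 with OXA plus Curcumin. The sum of 10 fibroblast markers ran from 151 to 304 over all arrays. *COL1A2*, *COL3A1*, *PDGFRA* and *THY1* were not measured on any array, *ACTA2* was measured on all 18, *COL1A1* on 10, *FAP* on 6, *LUM* on 5 and *DCN* and *PDGFRB* on 1 each. Of the 10, only *COL1A1* was called after OXA in HT29, higher, with an adjusted p of 0.00139, where 15.9% of all names were called. Its probe was not well above background on all 6 arrays compared, so no size is given. The list's median log2 difference there was -0.17. With OXA plus Curcumin against untreated in HTOXAR3 only *ACTA2* was called, at -1.19 ± 0.25, where 17.5% of all names were. The part of these genes in the results was not tested. The sum of 7 leukocyte markers ran from 1605 to 3348, most of it *CD14*, with *PTPRC* at a mean log2 intensity of 6.22. In HT29 that sum went from 2501 to 2752 untreated to 1605 to 1652 after OXA, and in HTOXAR3 from 3181 to 3348 to 2373 to 2499, and its part in the results below was not tested. The sum of 6 endothelial markers ran from 418 to 651. In bulk cultures a change in the share of cells that make a transcript and a change in transcript per cell cannot be told apart.

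The probes lie on GRCh37, by the annotation in the files, at chr11:102394029-102394088 for *MMP7*, chr11:102641405-102641464 for *MMP10*, chr11:102660697-102660756 for *MMP1* and chr11:102813773-102813832 for *MMP13*, all on the minus strand and within the MMP gene cluster of the long arm of chromosome 11. The *MMP9* probe lies at chr20:44645121-44645180, that of *MMP14* at chr14:23315791-23315850, that of *MMP15* at chr16:58080484-58080543, that of *TIMP1* at chrX:47444666-47444725, that of *TIMP2* at chr17:76849063-76849122 and that of *TIMP3* at chr22:33258540-33258599. Whether a probe falls in coding sequence or in a UTR was not determined.

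Promoter windows from RefSeq (GRCh38.p14), of 250 bases before to 50 after the start of transcription, were held for 6 of the 10 genes and were read because *MMP7* and *TIMP1* rose after OXA while *MMP15* fell. The 250 bases upstream of these 3 genes are shown, with those of *MMP10*, a gene of the same cluster that was measured on 1 array only. Capitals mark the motifs searched on both strands, namely AP-1 (TGANTCA), ETS (AGGAAG), TCF (CTTTGA), the TATA box (TATAAA) and the NF-κB consensus.
MMP7 (chr11:102530748-102530997, minus strand): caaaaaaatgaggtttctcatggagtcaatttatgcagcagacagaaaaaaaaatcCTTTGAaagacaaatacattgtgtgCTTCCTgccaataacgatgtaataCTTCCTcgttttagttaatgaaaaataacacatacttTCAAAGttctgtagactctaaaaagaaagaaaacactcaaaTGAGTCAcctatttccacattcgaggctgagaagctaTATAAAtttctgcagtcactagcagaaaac
MMP10 (chr11:102780629-102780878, minus strand): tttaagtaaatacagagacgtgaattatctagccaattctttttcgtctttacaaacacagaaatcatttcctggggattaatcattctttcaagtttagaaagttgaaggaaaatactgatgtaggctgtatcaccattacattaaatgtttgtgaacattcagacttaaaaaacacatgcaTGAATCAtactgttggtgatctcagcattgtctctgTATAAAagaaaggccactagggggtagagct
TIMP1 (chrX:47582186-47582435, plus strand): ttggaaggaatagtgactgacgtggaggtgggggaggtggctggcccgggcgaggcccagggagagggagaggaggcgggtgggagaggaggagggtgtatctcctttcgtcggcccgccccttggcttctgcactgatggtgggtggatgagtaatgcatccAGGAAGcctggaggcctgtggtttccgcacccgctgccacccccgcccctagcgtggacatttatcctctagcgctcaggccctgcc
MMP15 (chr16:58025504-58025753, plus strand): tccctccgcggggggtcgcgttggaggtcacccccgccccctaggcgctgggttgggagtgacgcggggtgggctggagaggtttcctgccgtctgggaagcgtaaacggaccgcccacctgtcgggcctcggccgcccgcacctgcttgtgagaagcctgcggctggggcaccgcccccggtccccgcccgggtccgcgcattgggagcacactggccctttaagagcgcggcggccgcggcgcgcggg

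The *MMP7* window held an AP-1 match at positions -67 to -61 from the start, 2 ETS matches, 2 TCF matches and a TATA match at -30 to -25. *MMP10* held an AP-1 match at the same -67 to -61 and a TATA match at -31 to -26. *TIMP1* held 1 ETS match, at -87 to -82, and the windows of *MMP14*, *MMP15* and *TIMP3* held none of the 5 motifs. Of all 35116 promoter windows of this length 7.71% held AP-1, 33.6% ETS, 12.9% TCF, 11.5% TATA and 5.91% the NF-κB consensus. A match is a match of letters only.

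**Figure D1:**
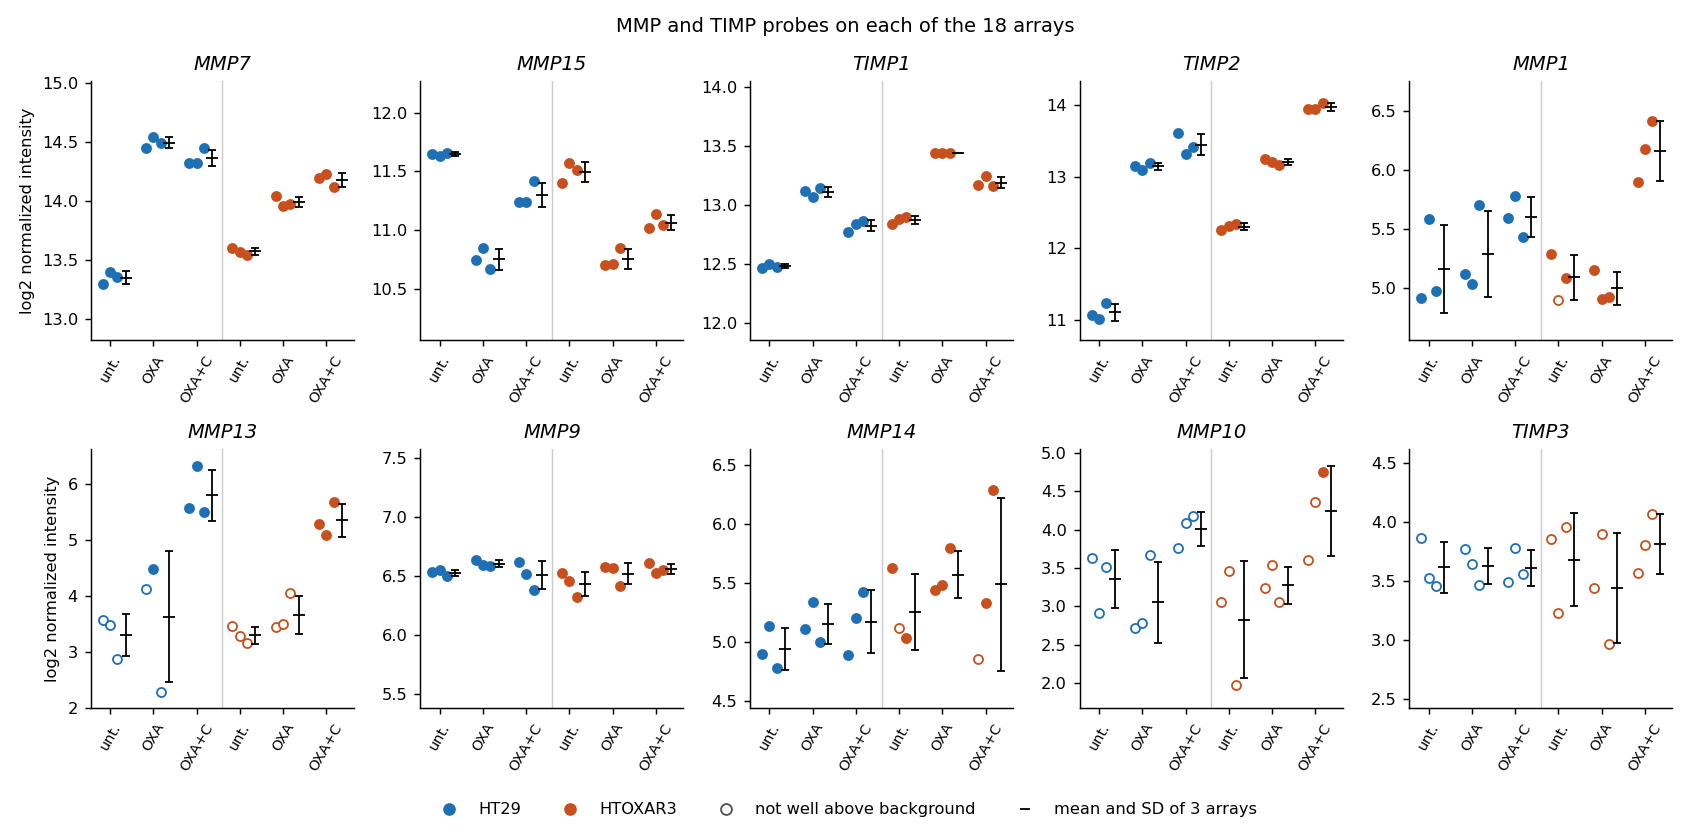
Log2 normalized intensity (vertical axes, each with its own range) of the 10 genes in the 3 arrays of each group (horizontal axes: untreated, OXA, OXA plus Curcumin). Open points were not well above background and bars are mean and SD. *TIMP2* climbs from 11.02 on its lowest to 14.03 on its highest array, while *MMP9* stays between 6.32 and 6.64.

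Before any treatment HTOXAR3 had more *TIMP2* and *TIMP1* transcript than HT29, and none of the 7 MMPs among the 10 genes was called. Of the 10 genes 2 were called, both higher in HTOXAR3. Over all names 11.5% were called in this comparison, 6.26% higher and 5.28% lower. *TIMP2* read 11.07, 11.02 and 11.24 in HT29 and 12.25, 12.31 and 12.35 in HTOXAR3, so the groups did not overlap. The log2 difference was 1.19 ± 0.08 (SE), or 2.29-fold, with an adjusted p of 6.32e-07, and it was 1.26 within slide 2 and 1.11 within slide 3. *TIMP1*, an inhibitor of most secreted MMPs that also acts as a growth factor, read 12.46, 12.50 and 12.47 against 12.83, 12.88 and 12.89. It was higher by 0.39 ± 0.05, or 1.31-fold, with an adjusted p of 3.73e-04, and by 0.36 and 0.42 within slides 2 and 3, but was not called in a model on the compared arrays alone. *MMP7* was also apart between the lines, at 13.29 to 13.40 in HT29 and 13.55 to 13.61 in HTOXAR3. Its difference of 0.22 ± 0.06 missed both thresholds at an adjusted p of 0.126. *MMP15*, a membrane-type MMP, read 11.63 to 11.66 and 11.40 to 11.57, a difference of -0.15 ± 0.07 with an adjusted p of 1. The 95% interval of the difference was -0.25 to 0.06 for *MMP9* and -0.30 to 0.93 for *MMP14*.

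After OXA the same 4 genes were called in each line, 3 higher and 1 lower. *TIMP2*, *MMP7* and *TIMP1* rose and *MMP15* fell. Over all names 15.9% were called in HT29 (8.33% higher, 7.62% lower) and 10.2% in HTOXAR3 (5.31% higher, 4.94% lower). Among the 17456 names well above background on every array the shares were 31.0% and 20.0%. The 2 comparisons share no arrays.

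*TIMP2* gave the widest response. In HT29 it went from 11.02 to 11.24 untreated to 13.16, 13.09 and 13.19 after OXA, a rise of 2.03 ± 0.08 or 4.10-fold with an adjusted p of 3.65e-09. In HTOXAR3 it went from 12.25 to 12.35 to 13.24, 13.21 and 13.17, a rise of 0.90 ± 0.08 or 1.87-fold with an adjusted p of 2.38e-05. After OXA the values of the lines overlapped, at 13.09 to 13.19 and 13.17 to 13.24. The rise in HT29 was 2.09, 2.07 and 1.95 within slides 1, 2 and 3.

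*MMP7*, which cleaves several matrix proteins and sheds surface ligands, went in HT29 from 13.29, 13.40 and 13.36 to 14.45, 14.54 and 14.50. That is a rise of 1.15 ± 0.06 or 2.21-fold, with an adjusted p of 4.33e-08. In HTOXAR3 it went from 13.61, 13.57 and 13.55 to 14.04, 13.96 and 13.98, a rise of 0.42 ± 0.06 or 1.34-fold with an adjusted p of 0.00122. No array of either line overlapped between untreated and OXA.

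*TIMP1* rose by 0.63 ± 0.05 in HT29, to 13.11, 13.07 and 13.14, and by 0.57 ± 0.05 in HTOXAR3, to 13.43, 13.44 and 13.44. These are 1.55-fold and 1.48-fold, with adjusted p of 3.05e-06 and 2.25e-05. *MMP15* fell by 0.89 ± 0.07 in HT29, from 11.65, 11.63 and 11.66 to 10.75, 10.85 and 10.67. In HTOXAR3 it fell by 0.74 ± 0.07, from 11.40, 11.57 and 11.51 to 10.71, 10.71 and 10.85. The adjusted p were 5.09e-06 and 7.41e-05, and the OXA groups of the lines overlapped. In a model on the HTOXAR3 arrays compared alone, only *TIMP2* of the 4 was called. For the collagenase *MMP1* the 95% interval of the response to OXA was -0.32 to 0.58 in HT29 and -0.54 to 0.35 in HTOXAR3, and for the gelatinase *MMP9* it was -0.08 to 0.23 and -0.07 to 0.24. *MMP14*, a membrane-type collagenase, gave -0.40 to 0.82 and -0.30 to 0.93.

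Adding Curcumin to OXA gave calls for 3 of 10 genes in HT29, *MMP13* and *MMP15* higher and *TIMP1* lower, where 5.53% of all names were called. In HTOXAR3 2 of 10 were called, *MMP1* and *TIMP2* higher, where 8.83% of all names were. These comparisons share the OXA arrays with those of OXA against untreated. All of these calls were lost in models on the compared arrays alone.

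*MMP13*, collagenase 3, was not well above background on any untreated array of either line or on any HTOXAR3 array after OXA, and was so on 1 of 3 HT29 arrays after OXA. With OXA plus Curcumin it was measured on all 6 arrays, at 5.58, 6.34 and 5.51 in HT29 and at 5.29, 5.10 and 5.68 in HTOXAR3. The HT29 OXA arrays read 4.13, 4.48 and 2.29, and those of HTOXAR3 read 3.44, 3.50 and 4.06, all below every array with Curcumin. In HT29 the difference from OXA was 2.17 ± 0.44 with an adjusted p of 0.0491, against OXA arrays of which only 1 of 3 was well above background, so its size is uncertain. It was 1.48 within slide 2 and 3.22 within slide 3. The call ended at 0.0707 with a replicate block, in a comparison where replicate numbers were taken to pair the arrays. It also ended when any array but HT29 OXA replicate 2 was left out, with adjusted p from 0.0541 to 0.274. It ended too at 0.0534 with slide as a block, at 0.0666 with the processed signal and 0.0966 with normexp scaled to the 75th percentile, at 0.0522 with the mean of all probes and at 0.106 without the arrays of slide 1, and was kept in 4 of 11 alternatives. The value was 0.73 with a normexp offset of 50 and 2.87 from the processed signal. In HTOXAR3 the level after OXA is only a bound, set at each array's lowest signal well above background or the probe's own if higher. Against that bound, with the normexp offset of 0, *MMP13* was 2.73-fold higher with Curcumin. The modelled difference missed the threshold at an adjusted p of 0.172.

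*MMP1* read 5.90, 6.18 and 6.42 in HTOXAR3 with OXA plus Curcumin, above 5.16, 4.91 and 4.93 with OXA and above all other arrays. The rise from OXA was 1.17 ± 0.21 or 2.25-fold, with an adjusted p of 0.0133, and was 0.75 within slide 2 and 1.38 within slide 3. Leaving out any 1 of 4 of the 6 arrays compared ended the call, namely replicates 2 and 3 of either group, with adjusted p up to 0.0949. The value was 0.57 with a normexp offset of 50. In HT29 *MMP1* read 5.60, 5.78 and 5.44 against 5.12, 5.03 and 5.71 with OXA, a difference of 0.32 ± 0.21 with an adjusted p of 1. The probe has 10 spots on each array, whose SD ran from 0.06 to 0.34.

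*TIMP2* rose further with Curcumin in HTOXAR3, from 13.17 to 13.24 up to 13.94, 13.94 and 14.03, by 0.77 ± 0.08 or 1.70-fold with an adjusted p of 1.39e-04. In HT29 it read 13.61, 13.32 and 13.41, also apart from OXA, with a difference of 0.30 ± 0.08 that missed the threshold at an adjusted p of 0.204. *MMP15* and *TIMP1* moved against their response to OXA. *MMP15* was higher with Curcumin than with OXA by 0.55 ± 0.07 in HT29 (adjusted p = 0.00216) and by 0.31 ± 0.07 in HTOXAR3, where the adjusted p of 0.0893 missed the threshold. *TIMP1* was lower by 0.29 ± 0.05 in HT29 (adjusted p = 0.0139), a call that ended at 0.0560 without HT29 OXA replicate 1, at 0.0769 without HT29 OXA replicate 3, and at 0.0829 and 0.0567 without replicates 1 and 2 of OXA plus Curcumin. In HTOXAR3 its difference of -0.25 ± 0.05 had an adjusted p of 0.0259 but a fold of 1.19, under the minimum. *MMP7* gave -0.13 ± 0.06 in HT29 and 0.19 ± 0.06 in HTOXAR3, neither called, with groups that did not overlap in either line.

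**Figure D2:**
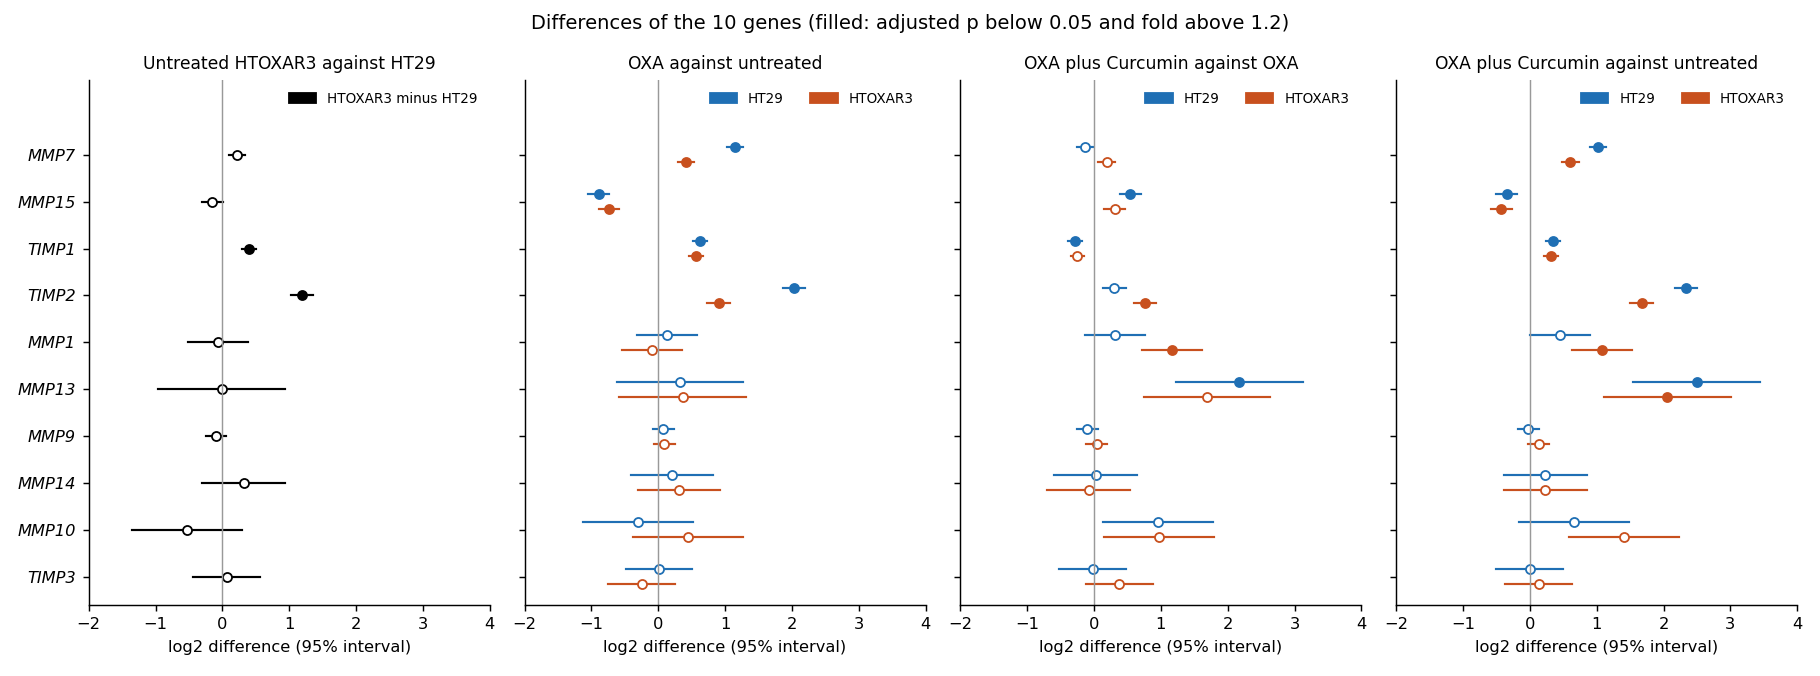
Log2 differences (horizontal axes) with 95% intervals for the 10 genes in 7 comparisons, with HT29 in blue and HTOXAR3 in orange. Filled points were called, as defined in the text. *TIMP2* lies at 2.03 in HT29 and 0.90 in HTOXAR3 after OXA, and the wide intervals of *MMP13* and *MMP10* belong to probes that few arrays measured.

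Against untreated cells, OXA plus Curcumin gave calls for 5 of 10 genes in HT29 and for 6 of 10 in HTOXAR3. They share the untreated arrays with the comparisons of OXA. The shares over all names were 18.6% (9.56% higher, 9.02% lower) and 17.5% (8.82% higher, 8.64% lower). *TIMP2* was higher by 2.34 ± 0.08 in HT29, or 5.06-fold, and by 1.67 ± 0.08 in HTOXAR3, or 3.18-fold, with adjusted p of 1.23e-09 and 4.03e-08. *MMP7* was higher by 1.01 ± 0.06 and 0.61 ± 0.06, with adjusted p of 1.26e-07 and 1.86e-05. *TIMP1* stayed higher by 0.35 ± 0.05 and 0.32 ± 0.05, with adjusted p of 7.41e-04 and 0.00166. *MMP15* stayed lower, by -0.35 ± 0.07 and -0.43 ± 0.07, with adjusted p of 0.0211 and 0.00403. The HT29 call of *MMP15* was lost when any array but HT29 OXA plus Curcumin replicate 3 was left out, with adjusted p from 0.0706 to 0.127, and at 0.0594 with slide as a block. In models on the compared arrays alone the calls of *TIMP1* and *MMP15* in both lines and of *MMP1* in HTOXAR3 were lost, and those of *TIMP2*, *MMP7* and *MMP13* were kept in both lines.

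Against a bound for the untreated level, set as for adding Curcumin, *MMP13* was 3.63-fold higher in HT29 and 1.83-fold higher in HTOXAR3. These folds hold for the normexp offset of 0 and are no minimum over the alternatives. The modelled differences had adjusted p of 0.00563 and 0.0278. Over the alternatives the log2 difference ran from 0.83 with a normexp offset of 50 to 3.88 from the processed signal in HT29 and from 0.60 to 3.07 in HTOXAR3, where it was not called with normexp scaled to the 75th percentile (adjusted p = 0.155). The call in HTOXAR3 ended when any 1 of the 6 arrays was left out, with adjusted p from 0.0656 to 0.154 and log2 differences from 1.89 to 2.18. *MMP1* was higher in HTOXAR3 alone among the calls, by 1.07 ± 0.21 with an adjusted p of 0.0127. That call too ended without 4 of the 6 arrays in turn, replicates 2 and 3 of either group, with adjusted p up to 0.0860, and the value was 0.53 with a normexp offset of 50. In HT29 *MMP1* gave 0.45 ± 0.21. *MMP10*, stromelysin 2, was measured on 1 array of 18, HTOXAR3 with OXA plus Curcumin replicate 3, at 4.75. Its other readings were 1.97 to 3.67 without Curcumin and 3.60 to 4.37 with it, none of them well above background, and it was not called in any comparison. *TIMP3*, an inhibitor held in the matrix, read 2.97 to 4.07 and was not measured on any array, so these data give no difference for it.

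The responses of *TIMP2* and *MMP7* to OXA differed between the lines by the test of that difference. This interaction was called for 2 of 10 genes and for 1.01% of all names. The rise of *TIMP2* was smaller in HTOXAR3 by 1.13 ± 0.11, with an adjusted p of 4.41e-04 and within-slide values of -1.11 and -1.10. That of *MMP7* was smaller by 0.73 ± 0.08, with an adjusted p of 0.00133 and within-slide values of -0.69 and -0.71. HTOXAR3 had started from the higher level of *TIMP2*, and had received the higher dose of OXA. The responses of *TIMP1* and *MMP15* to OXA did not differ by the test, with 95% intervals of -0.21 to 0.08 and -0.06 to 0.37 for HTOXAR3 minus HT29.

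For the effect of adding Curcumin the line difference was called for 0 of 10 genes by limma, with 4 at an unadjusted p below 0.05, and for 0.135% of all names. These 4 were *MMP1* at 0.85 ± 0.29, *TIMP2* at 0.46 ± 0.11, *MMP7* at 0.32 ± 0.08 and *MMP15* at -0.24 ± 0.10, so the call of *MMP1* in HTOXAR3 and not in HT29 is no shown difference between the lines. For OXA plus Curcumin against untreated it was called for 1 of 10, *TIMP2*, at -0.67 ± 0.11 with an adjusted p of 0.0459, and for 0.856% of all names. That call was lost in 10 of the 12 fits that left out 1 array, with adjusted p up to 0.159, and at 0.0604 with a replicate block. *MMP7* gave -0.41 ± 0.08 with an adjusted p of 0.140.

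**Figure D3:**
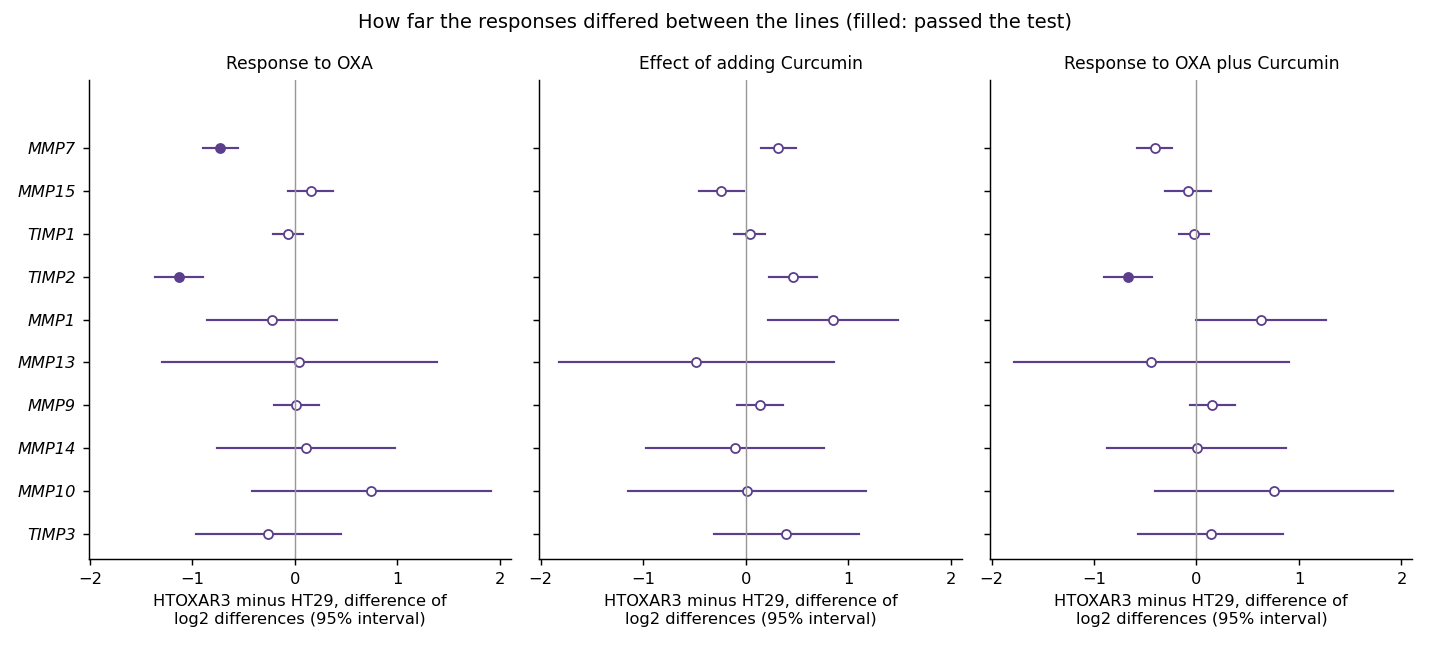
Differences between the lines in 3 responses, as HTOXAR3 minus HT29 of log2 differences (horizontal axes) with 95% intervals. Filled points passed the test, namely *MMP7* (-0.73) and *TIMP2* (-1.13) for OXA and *TIMP2* (-0.67) for OXA plus Curcumin.

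Ordered by group mean, *MMP7* ran from untreated HT29 (13.35) through untreated HTOXAR3 (13.57), HTOXAR3 with OXA (13.99), HTOXAR3 with OXA plus Curcumin (14.18) and HT29 with OXA plus Curcumin (14.37) to HT29 with OXA (14.50), and no neighbours in that order overlapped. *TIMP2* ran from untreated HT29 (11.11) through untreated HTOXAR3 (12.30), HT29 with OXA (13.14), HTOXAR3 with OXA (13.21) and HT29 with OXA plus Curcumin (13.45) to HTOXAR3 with OXA plus Curcumin (13.97), and only the OXA groups overlapped. *TIMP1* ran from untreated HT29 (12.48) to HTOXAR3 with OXA (13.44), with 1 overlapping pair of neighbours. *MMP15* ran from HT29 with OXA (10.76) to untreated HT29 (11.65), with 2. *MMP9* and *MMP14* overlapped at all 5 steps, with group means of 6.43 to 6.61 and 4.94 to 5.57.

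Over the 18 arrays, the names most like *TIMP2* among 17395 candidates well above background throughout were *TMC8*, *CYR61* (now *CCN1*) and *EPAS1*, each at a Pearson r of 0.98. Those most like *MMP7* were *TNRC6C-AS1*, whose accession RefSeq places at *TMC6*, with *CLUAP1* and *ZDHHC11B*, at 0.98, 0.97 and 0.97. For *TIMP1* they were *KRT16P2*, *MARCH9* (now *MARCHF9*) and *ZNF689*, at 0.99, 0.99 and 0.98. The points share arrays and 6 groups, and each is the best of many, so these values are a description.

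Counts of called genes in the lists that follow are to be read against the shares called over all names and, since many listed genes were measured throughout, over the 17456 names well above background on every array. The latter were 21.6% for the untreated lines, 31.0% and 20.0% for OXA in HT29 and HTOXAR3, and 35.6% and 33.4% for OXA plus Curcumin. Other MMP genes were read from a list of 17, of which 16 were on the array, 5 of them well above background on all 18 arrays and 8 on none. *MMP2* was among those 8. *MMP24*, a membrane-type MMP best known from neurons, went in HT29 from a group mean of 10.35 to 12.80 after OXA and 12.34 with Curcumin, and in HTOXAR3 from 9.56 to 11.48 and 11.88. It was lower in untreated HTOXAR3 by -0.79 ± 0.09, the only call of the list there. It rose by 2.44 ± 0.09 in HT29 and by 1.92 ± 0.09 in HTOXAR3 after OXA. *MMP17*, a membrane-type MMP with a lipid anchor, fell after OXA by 1.16 ± 0.12 and 0.66 ± 0.12. In all, 3 of the 16 rose and 1 fell after OXA in HT29 and 1 rose and 1 fell in HTOXAR3, and after OXA plus Curcumin 2 rose and 1 fell in each line. Over all names 15.9% and 10.2% were called after OXA and 18.6% and 17.5% after OXA plus Curcumin. The list's median log2 differences were 0.18 and 0.07 after OXA, against -0.01 and 0.01 over all names.

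Of 6 other inhibitors of metalloproteinases, *TIMP4* was the only one called. It had group means of 9.10, 9.49 and 10.14 over the treatments of HT29 and of 9.26, 9.39 and 10.37 over those of HTOXAR3. With OXA plus Curcumin it was higher than in untreated cells by 1.04 ± 0.06 and 1.11 ± 0.06, and after OXA it was called in HT29 at 0.40 ± 0.06.

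**Figure D4:**
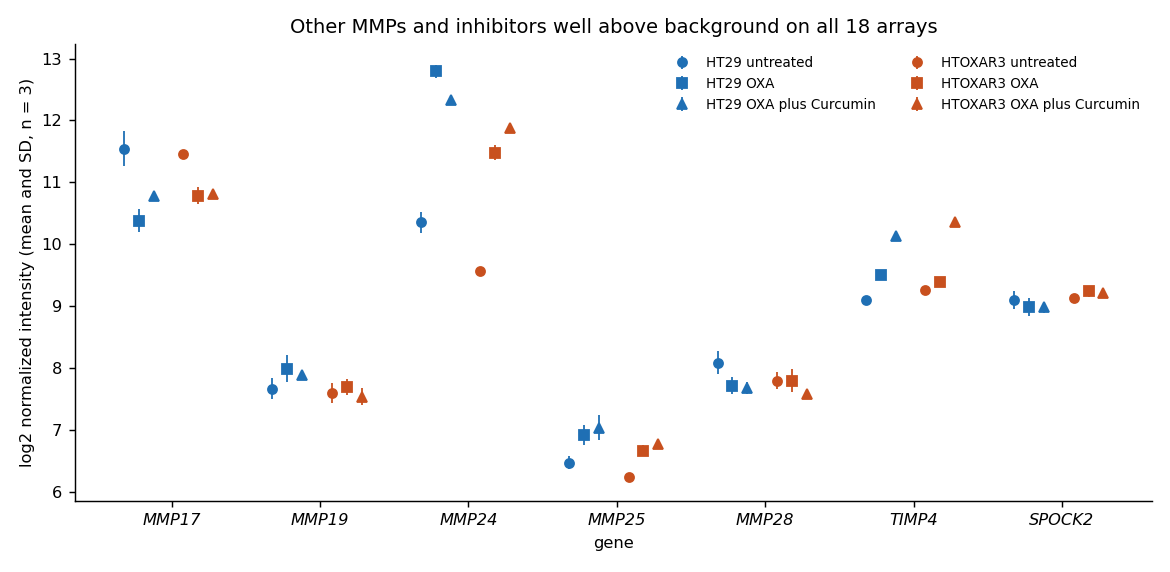
Group means and SD of log2 normalized intensity (vertical axis) of the listed MMPs and inhibitors beyond the 10 that were well above background on all 18 arrays, with HT29 in blue and HTOXAR3 in orange and the symbol giving the treatment. *MMP24* lies at 10.35 in untreated HT29 and at 12.80 after OXA, and *TIMP4* is highest with OXA plus Curcumin in both lines.

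Of 18 activators and binding partners of MMPs, 2 were higher and 4 lower in untreated HTOXAR3, where 6.26% and 5.28% of all names were. *PLAU*, the urokinase that starts the plasmin cascade, was higher by 1.44 ± 0.06, and *LRP1*, a receptor that clears proteases and their inhibitors, lower by -2.13 ± 0.10. *PCSK5*, a proprotein convertase, and *TMPRSS2*, a serine protease of the cell surface, were lower by -1.18 ± 0.07 and -1.08 ± 0.11. After OXA *PLAU* rose by 2.77 ± 0.06 in HT29 and 2.00 ± 0.06 in HTOXAR3, and *CD44*, a hyaluronan receptor that holds MMPs at the cell surface, fell by 0.68 ± 0.10 and 0.77 ± 0.10. The list gave 3 rises and 1 fall in HT29 and 2 rises and 1 fall in HTOXAR3, where 15.9% and 10.2% of all names were called. With OXA plus Curcumin it gave 5 rises and 2 falls in HT29 and 3 of each in HTOXAR3. Over all names 18.6% and 17.5% were called there. *CD44* was at -1.20 ± 0.10 and -1.58 ± 0.10, and *PLAU* at 1.52 ± 0.06 and 1.01 ± 0.06.

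Of 24 matrix and surface substrates, 5 were higher and 4 lower in untreated HTOXAR3, against 11.5% of all names called. *SPP1*, which encodes osteopontin, was among those higher, with an adjusted p of 2.58e-10. Its probe was not well above background on all 6 arrays compared, so no size is given, and it is named after its value was seen. Among those measured on all 6 were *COL6A1* at 1.97 ± 0.18 and *HSPG2*, which encodes perlecan, at -0.96 ± 0.09. The basement membrane collagen genes *COL17A1* and *COL4A2* were at -0.79 ± 0.08 and -0.64 ± 0.06. After OXA 5 rose and 0 fell in HT29, and 4 rose and 2 fell in HTOXAR3, against 15.9% and 10.2% of all names called. The laminin chain gene *LAMA3* rose by 0.88 ± 0.09 and 1.17 ± 0.09. With OXA plus Curcumin 8 rose and 1 fell in HT29 and 7 rose and 2 fell in HTOXAR3, with *LAMB3* at 1.58 ± 0.07 and 1.33 ± 0.07. The shares over all names were 18.6% and 17.5%, and those over names measured throughout 35.6% and 33.4%. The list's median difference there was 0.14 and 0.05, against -0.03 and -0.01 over all names.

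Of 22 transcription factors known to act on MMP promoters, 2 were higher and 5 lower in untreated HTOXAR3, against 11.5% of all names called, among the latter *FOSB* of the AP-1 family at -0.88 ± 0.18. Of the ETS family, *ETV1* was higher by 0.88 ± 0.08 and *ELF3* and *ETS2* were lower, both at -0.71 ± 0.08. After OXA 6 rose and 3 fell in HT29, and 5 rose and 3 fell in HTOXAR3, against 15.9% and 10.2% of all names and 31.0% and 20.0% of names measured throughout. The NF-κB subunits *NFKB2* and *RELB* rose by 1.67 ± 0.07 and 1.56 ± 0.07 in HT29 and by 1.63 ± 0.07 and 1.34 ± 0.07 in HTOXAR3. With OXA plus Curcumin they were higher than untreated by 1.45 ± 0.07 and 1.43 ± 0.07 in HT29 and by 1.54 ± 0.07 and 1.37 ± 0.07 in HTOXAR3, among 6 rises and 2 falls and 5 rises and 4 falls, against 18.6% and 17.5% of all names called.

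Of 19 ADAM and ADAMTS proteases, metalloproteinases related to MMPs, 2 were higher and 1 lower in untreated HTOXAR3, against 11.5% of all names called. Of those measured on all 6 arrays, *ADAM8* was at -0.96 ± 0.07 and *ADAM19* at 0.89 ± 0.09. *ADAMTS4* was also called higher, with an adjusted p of 0.0367, from a probe not well above background on all 6, so no size is given, and it is named after its value was seen. After OXA 0 rose and 2 fell in HT29, *ADAMTS7* at -0.59 ± 0.08 and *ADAM19* at -0.39 ± 0.09, while limma called none in HTOXAR3, where they were at -0.37 ± 0.08 (adjusted p = 0.0633) and -0.03 ± 0.09. With OXA plus Curcumin 2 rose and 2 fell in HT29 and 3 rose and 1 fell in HTOXAR3, with *ADAM8* at 0.68 ± 0.07 and 0.48 ± 0.07 and *ADAM19* at -0.78 ± 0.09 and -0.41 ± 0.09. That is 4 of 19 in each line, near the 18.6% and 17.5% called over all names.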

How the data were processed

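Cy3-labelled cRNA had been hybridised to single-colour Agilent arrays, which were read with Feature Extraction 10.7.3.1. The authors deposited each array's scanner output with linear spot and background intensities, not normalized between arrays, and a processed intensity after background subtraction. Their table of log2 values was not used, as its lines carry no names here. The mean intensity was corrected with normexp (offset 0), control spots were dropped, values were quantile-normalized, outlier spots were set to missing and spots of a probe averaged. The probe with the highest mean stood for a gene name. Group terms for all 18 arrays were fitted in limma (version 3.58.1, R version 4.3.3) by lmFit and eBayes, and p-values were adjusted over all names, after the study's methods. No array had a count depth, so the 3 arrays per group limit the precision. The p-values measure the spread between replicates that the study's methods call biological. The model was tested on simulated data. The 10 genes, the gene lists and the tests were chosen with earlier results of these data known. All 10 genes were named, with up to 4 called genes of each list by size in the untreated comparison and 2 in each response, among those well above background on all 6 arrays compared, and the 3 names most like each of 3 genes. Deviations of arrays with the same replicate number correlated at 0.32 to 0.41 for OXA against untreated in HT29 and at 0.13 to 0.26 for adding Curcumin in HT29, where every pair was over 0.1 and the numbers were taken to pair the arrays, and down to -0.22 elsewhere. In those HT29 comparisons 3 and 2 of the same-numbered pairs also shared a slide, so pairing cannot be told apart from slide. Alternatives covered scaling, offset, probes, filter, adjustment, fold, slide, pairing and left-out arrays. Figures were drawn with matplotlib 3.10.9. Promoters came from RefSeq, with motifs searched over the whole window.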

Additional observations from a re-analysis of the deposited data

Results flagged for a closer look

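The rise of *TIMP2* after OXA differed between the lines by -1.13 (log2, HTOXAR3 minus HT29, SE 0.11), which drew attention because the interaction passed the test. It rose in both lines, and it was called in 11 of 11 alternatives and in 12 of 12 fits without 1 array. Several of these alternatives leave the log2 difference unchanged by design, and Benjamini-Hochberg adjustment could not lose a call. The rise of *MMP7* after OXA differed by -0.73 (SE 0.08), and was called in 10 of 11 alternatives, all but the fold above 2, and in 12 of 12 fits without 1 array. The response of *TIMP2* to OXA plus Curcumin differed by -0.67 (SE 0.11), and was called in 3 of 11 alternatives and in 2 of 12 fits without 1 array. OXA had been given at 30 µM to HTOXAR3 and at 10 µM to HT29, and the part of the dose in these differences cannot be told apart from that of the line.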

How the results depend on the processing

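None of the 29 calls changed direction under the alternatives. Adjustment, filter, fold, replicate block, compared arrays alone and, with 1 probe per gene, the mean of all probes leave a log2 difference unchanged. Direction could therefore change only with offset, scaling, slide or left-out arrays. Benjamini-Hochberg adjustment is never stricter than BY, so it could lose none of the 29 calls. Of these calls, 29 were kept with a normexp offset of 50, with names well above background on 3 or more arrays and with Benjamini-Hochberg adjustment, 27 with the mean of all probes and with the processed signal scaled to the 75th percentile, 26 with normexp so scaled and with slide as a block, 12 at a fold above 2 and 14 in models on the compared arrays alone, which have fewer samples. For adding Curcumin in HTOXAR3, 4 genes instead of 2 were called with the offset of 50, the processed signal or Benjamini-Hochberg adjustment, and 3 with the filter. Benjamini-Hochberg adjustment also gave 4 instead of 3 for adding Curcumin in HT29 and 7 instead of 6 for OXA plus Curcumin in HTOXAR3. For the line difference in the response to OXA plus Curcumin, 2 instead of 1 were called with the offset of 50, the filter or Benjamini-Hochberg adjustment, and 0 with either 75th percentile scaling, the mean of all probes, a fold above 2, slide as a block, a replicate block, the compared arrays alone or without the arrays of slide 1. With the replicate block 27 of the 29 calls were kept, the others being *TIMP2* in that line difference (adjusted p = 0.0604) and *MMP13* for adding Curcumin in HT29 (0.0707). At a fold above 2 the called genes numbered 1 untreated, 2 and 0 for OXA in HT29 and HTOXAR3, 1 and 1 for adding Curcumin, 3 and 3 for OXA plus Curcumin, and 1 for the line difference in the response to OXA. With the compared arrays alone they numbered 1 untreated, 1 for OXA in HTOXAR3, 0 and 0 for adding Curcumin, and 3 and 3 for OXA plus Curcumin. Without both arrays of slide 1, a choice made after seeing the data, 1 was called for adding Curcumin in HT29. Leaving out 1 array at a time gave 1 to 3 calls for adding Curcumin in HT29, 1 to 2 in HTOXAR3, 4 to 5 for OXA plus Curcumin in either line and 0 to 1 for its line difference. It kept all calls for untreated lines (2 to 2), for OXA (4 to 4 in each line) and for the line difference in OXA (2 to 2). Scaling the processed signal moved the median of all genes by up to -0.19 after treatment. The cause of these changes was not tested. *MMP13* passed the filter on 3 or more arrays mainly through OXA plus Curcumin, with 6 of its 7 measured arrays, so its calls there add no support. *MMP10*, *MMP13* and *TIMP3* are limited by signal near background.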
